A study of Homo sapiens with 5 samples.

Results

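The ATF4 amino acid response genes are 10 human genes, of 15028 kept in the data: ATF4, DDIT3, DDIT4, SESN2, TRIB3, ASNS, PSAT1, PHGDH, SLC7A11 and CHAC1. They were taken by symbol as ATF4 itself and genes usually given as its targets, and all 10 were listed in every library and passed the filter on low counts in every comparison. ATF4 is a transcription factor whose mRNA is translated more when the initiation factor eIF2 is phosphorylated, as happens through GCN2 when amino acids run short and through PERK when proteins misfold in the endoplasmic reticulum. Its targets make or import amino acids, charge tRNAs, restrain the growth kinase mTORC1 and feed back on the response itself. Because ATF4 is controlled in good part at translation, the level of its own mRNA and the levels of its targets are separate readouts.

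SW480 is a human cell line from a colorectal adenocarcinoma, long in use. Its GFP-transfected cells had been injected into zebrafish, tumors of many fish had been pooled, and single cells had been sorted into 384-well plates for SORT-seq, which counts RNA molecules by unique molecular identifiers (UMIs). Libraries 6, 7 and 8 hold 1 plate each from 1 day post injection (dpi), and libraries 10 and 11 hold 1 plate each from 4 dpi. Plates of a time point may share 1 pool of tumors, in which case the p-values cover technical spread only.

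Cells with more than 2000 genes and under 25% mitochondrial UMIs numbered 533 at 1 dpi and 293 at 4 dpi. By library they numbered 228, 142 and 163 at 1 dpi (libraries 6, 7 and 8) and 132 and 161 at 4 dpi (libraries 10 and 11). These cells held 7503665, 5376698 and 4781448 UMIs at 1 dpi and 3961242 and 3789632 UMIs at 4 dpi. The median cell had 30874, 36197 and 25938 UMIs at 1 dpi and 26120 and 18823 UMIs at 4 dpi, so cells of 4 dpi were the shallower ones on average, with overlap between libraries 8 and 10. The 5 libraries share the same 384 well barcodes by design, and 15 well names passed in every library. Wells with more than 2000 genes that were left out for a mitochondrial share of 25% or more numbered 1, 3 and 1 at 1 dpi and 25 and 30 at 4 dpi.

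The cells carried the epithelial markers of a colorectal line. Of 10 colon epithelial genes, 8 had UMIs in all 5 libraries, KRT8 was the most abundant, and their summed level was 4688, 5423 and 5749.9 CPM (counts per 1000000 UMIs of the library) at 1 dpi and 4705 and 4901 CPM at 4 dpi. KRT20 and CDX1, which mark differentiated colon cells, were at 0 in 2 and 4 of the libraries. Markers of other cells were near 0: 8 leukocyte genes summed to between 5.81 and 11.9 CPM (most abundant CD68, with MPO and TYROBP at 0 in all libraries), 5 endothelial genes to between 1.49 and 2.27 CPM (PECAM1, with CDH5 at 0) and 5 erythroid genes to between 3.17 and 10.04 CPM (HBA1, with ALAS2 at 0). The 6 fibroblast genes summed to 23.3, 26.4 and 27.4 CPM at 1 dpi and 44.7 and 32.98 CPM at 4 dpi, mostly LUM, with COL1A2 at 0 in all libraries. Part of the difference in that sum was COL1A1, and its part in the results on the ATF4 genes was not tested.

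With time, 5 of the 10 genes were lower at 4 dpi than at 1 dpi and 0 were higher, by the edgeR quasi-likelihood test at a Benjamini-Hochberg adjusted p under 0.05, where 14.2% of the 12610 genes tested were lower and 13.4% higher. None of the 10 was higher by DESeq2 (0) or at an unadjusted p under 0.05 in edgeR (0), and 7 were lower at that unadjusted p. The median change of the 10 was -0.32 on the log2 scale, beside 0.00 for all genes. The genes that fell were the mTORC1 inhibitors DDIT4 and SESN2, the biosynthetic enzymes PSAT1 and ASNS and the cystine importer SLC7A11. In a library sum, fewer cells with a transcript and less RNA per cell cannot be told apart.

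Of the transcription factors of the response, neither passed the test of change with time over all cells. In CPM after TMM scaling, used from here on, ATF4 (chromosome 22) stood at 808, 731 and 784 in libraries 6, 7 and 8 and at 743 and 767 CPM in libraries 10 and 11. Both 4 dpi libraries lay inside the 1 dpi range, and the change of -0.04 on the log2 scale (SE 0.09, adjusted p 0.782, edgeR) was smaller than its error. DDIT3 (chromosome 12) encodes CHOP, a transcription factor tied to cell death under long stress. It had 119.6, 168 and 149 CPM at 1 dpi and 143 and 165 CPM at 4 dpi, a change of 0.08 (SE 0.13, adjusted p 0.663). The groups overlapped, and library 6 was the low one. With the mitochondrial maximum at 15% the change of DDIT3 was 0.41 (adjusted p 0.0518).

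The largest fall among the 10 was that of DDIT4 (chromosome 10), also called REDD1, which restrains mTORC1 through the TSC complex. DDIT4 had 141.5, 162 and 149 CPM at 1 dpi and 59.9 and 63.5 CPM at 4 dpi. Every 1 dpi library was above both 4 dpi libraries, with means of 151 ± 10.5 CPM (SD, n = 3) and 61.7 ± 2.56 CPM (SD, n = 2). The change was -1.29 (SE 0.11, adjusted p 1.32e-06, edgeR), or 59.1% lower.

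SESN2 (chromosome 1), a leucine sensor that holds mTORC1 back through GATOR2, fell in the same direction by less. Its levels were 123, 125 and 140.5 CPM at 1 dpi and 73.2 and 79.7 CPM at 4 dpi. The groups did not overlap, and the change was -0.76 (SE 0.11, adjusted p 0.000154). TRIB3 (chromosome 20) is a pseudokinase that binds AKT and damps ATF4 in feedback. It had 436, 497 and 511 CPM at 1 dpi and 305.5 and 478 CPM at 4 dpi. Library 10 was low and library 11 fell between the 1 dpi libraries, and the change of -0.30 (SE 0.14, adjusted p 0.125) did not pass. With flow cell as a term in the fit it was -0.38 (adjusted p 0.0168) and passed. By the mean of cells with limma it was -0.49 (adjusted p 1.15e-05) and also passed. Without library 11 it was -0.66. Without library 10 it was -0.0098 (adjusted p 0.964), and in thinned cells -0.06, and neither passed.

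Of the enzymes, PSAT1 (chromosome 9), the aminotransferase of serine synthesis, fell most. It stood at 418, 417 and 424 CPM in the 1 dpi libraries and at 272 and 180.1 CPM in the 4 dpi libraries. The SD of the 1 dpi libraries was 3.77 CPM, both 4 dpi libraries were lower, and the change was -0.89 (SE 0.13, adjusted p 0.000154). PHGDH (chromosome 1), the dehydrogenase that opens the same pathway one step before PSAT1, had 98.7, 103 and 98.1 CPM at 1 dpi and 89.85 and 77.6 CPM at 4 dpi. Both 4 dpi libraries were below all of 1 dpi, but the change of -0.26 (SE 0.11, adjusted p 0.0946) missed the threshold. ASNS (chromosome 7), asparagine synthetase, had 702, 639 and 718 CPM at 1 dpi and 480.4 and 602 CPM at 4 dpi, a change of -0.34 (SE 0.10, adjusted p 0.0212). The groups did not overlap, and library 10 carried more of the fall: without library 10 the change was -0.19 and did not pass, nor did it without library 8 (-0.31) or in thinned cells (-0.30, adjusted p 0.0752).

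SLC7A11 (chromosome 4), the light chain of the cystine-glutamate exchanger xCT, had 174, 158 and 139.7 CPM at 1 dpi and 137 and 96.1 CPM at 4 dpi, a change of -0.43 (SE 0.14, adjusted p 0.0267). Library 10 lay just under library 8, and the call rested on library 11: without it the change was -0.20, and it did not pass without library 6 (-0.35) or library 7 (-0.43) either. CHAC1 (chromosome 15), which breaks down glutathione, had 59.1, 55.4 and 52.1 CPM at 1 dpi and 51.8 and 48.7 CPM at 4 dpi. All 5 values lay close together, and the change of -0.15 (SE 0.12, adjusted p 0.389) did not pass.

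**Figure D1:**
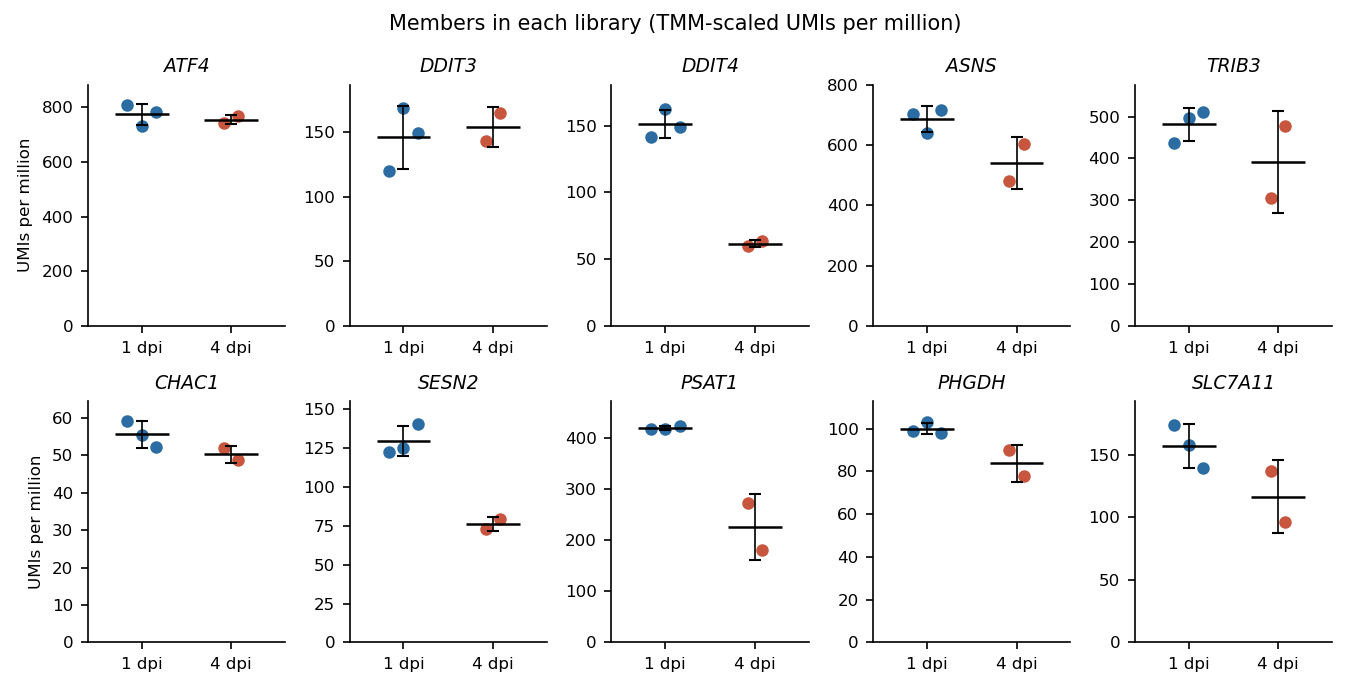
Level of each of the 10 genes (CPM, axis from 0) in the 3 libraries of 1 dpi and the 2 of 4 dpi; points are libraries, lines are means and bars are SDs. DDIT4, SESN2 and PSAT1 sit lower at 4 dpi with no overlap, and ATF4, DDIT3 and TRIB3 overlap.

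The falls of DDIT4, SESN2 and PSAT1 passed under 18 of 19 other settings of the processing and those of ASNS and SLC7A11 under 14. With flow cell as a term 6 of the 10 were lower, these 5 and TRIB3. The exception shared by all was scaling to the ERCC spike-ins, which put the median of all genes at -0.202 and called 0 of the 10, although the fitted changes were then -1.51 for DDIT4, -0.98 for PSAT1 and -0.96 for SESN2. The human UMIs per ERCC UMI were 107, 119 and 112 in libraries 6, 7 and 10 of 1 flow cell and 55.9 and 49.5 in libraries 8 and 11 of the other, and with flow cell as a term beside that scaling, an alternative chosen after seeing the data, 6 of the 10 were lower. With no mitochondrial maximum 5 were lower. With the maximum at 15% the changes were -1.02 for DDIT4, -0.77 for PSAT1 and -0.41 for SESN2, which passed, and -0.07 for ASNS and -0.25 for SLC7A11, which did not.

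Cell by cell, each of the genes was detected in a smaller share of cells in both 4 dpi libraries than in any 1 dpi library. DDIT4 and SESN2 are given first. At least 1 DDIT4 UMI was found in 66.7%, 71.1% and 69.3% of the cells of libraries 6, 7 and 8 and in 35.6% and 31.1% of those of libraries 10 and 11. The exact 95% intervals, which cover counting error only, reached down to 60.1% at 1 dpi and up to 44.4% at 4 dpi. In cells thinned to 5000 UMIs, so that depth is equal, the shares were 41.2%, 34.3% and 33.1% at 1 dpi and 13.8% and 15.7% at 4 dpi. The order of the groups was the same at equal depth. SESN2 was found in 62.3%, 70.4% and 68.7% of cells at 1 dpi and in 45.5% and 42.2% at 4 dpi (thinned, 26.1%, 38.6% and 35.6% against 20% and 20.8%). ATF4 UMIs were found in 99.1%, 98.6% and 98.8% of cells at 1 dpi and in 98.5% and 96.3% at 4 dpi. CHAC1 UMIs were found in 42.5%, 41.5% and 44.8% at 1 dpi and in 38.6% and 35.4% at 4 dpi. In thinned cells TRIB3 had 60.6%, 61.4% and 65% at 1 dpi and 47.7% and 42.8% at 4 dpi. PSAT1 there had 73.5%, 72.9% and 73.75% at 1 dpi and 51.5% and 49.7% at 4 dpi. At equal depth the groups overlapped for DDIT3, SLC7A11 and CHAC1.

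The summed level of the 10 genes per cell was lower in its middle at 4 dpi. The median cell had 25.6, 24.2 and 26.8 UMIs of the 10 genes per 10000 UMIs at 1 dpi and 15.7 and 15.9 at 4 dpi. At the 10th percentile of cells the sum was 11.0, 9.90 and 8.00 at 1 dpi and 5.69 and 4.90 at 4 dpi, lower in both 4 dpi libraries. At the 90th percentile the libraries were nearer to each other, with 56.6, 64.9 and 56.9 at 1 dpi and 49.5 and 54.1 at 4 dpi. The ratio of those percentiles, a spread relative to the level, was 5.14, 6.56 and 7.11 at 1 dpi and 8.71 and 11.0 at 4 dpi. In thinned cells the medians were 12.5, 11.5 and 13 UMIs at 1 dpi and 7 and 8 UMIs at 4 dpi, with the same order of groups. For any such value 3 libraries against 2 allow no exact permutation p under 0.1, so none is given.

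Within each library, cells were also split at the library's median share of mitochondrial UMIs, and the cells above it are called mitochondria-rich and the others mitochondria-poor. In mitochondria-rich cells 7 of the 10 genes were lower and 0 higher (edgeR quasi-likelihood, library as a block, Benjamini-Hochberg over 11003 genes, mitochondrial genes left out), beside 9.5% lower and 10.5% higher of all genes. By DESeq2 and at an unadjusted p under 0.05 the count of higher genes was also 0, and DESeq2 called 5 lower. The 7 by edgeR were ATF4, DDIT3, DDIT4, SESN2, TRIB3, SLC7A11 and CHAC1, and the median difference of the 10 was -0.57, beside 0.00 for all genes. Of these SESN2 (adjusted p 0.0801) and SLC7A11 (0.0608) missed the threshold by DESeq2. Between upper and lower terciles TRIB3 (-1.18), DDIT4 (-0.8), SESN2 (-0.98) and SLC7A11 (-0.43) missed it. In the main fit the enzymes ASNS, PHGDH and PSAT1 did not pass, though ASNS passed in thinned cells (-0.43, adjusted p 0.0457). The calls rested in part on the 4 dpi libraries: without library 10, DDIT3, TRIB3 and CHAC1 passed, and without library 11 these 3 and ATF4. SLC7A11 also missed the threshold without library 6 (-0.40) or 8 (-0.41).

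How far the genes differed between mitochondria-rich and mitochondria-poor cells changed with time. The interaction of mitochondrial group and time passed for 8 of the 10 genes, each with a more negative difference at 4 dpi, where 4.48% of all genes had a more negative and 2.68% a more positive one (edgeR, over 11003 genes). No member had a more positive one in edgeR (0), DESeq2 (0) or at an unadjusted p under 0.05 (0). DESeq2 called 5 of the 8, and ASNS (adjusted p 0.175), PHGDH (0.0668) and SLC7A11 (0.24) missed the threshold there.

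For SESN2, the log2 ratio of mitochondria-rich to mitochondria-poor cells was -0.39, -0.56 and 0.05 at 1 dpi (libraries 6, 7 and 8) and -2.06 and -1.55 at 4 dpi (libraries 10 and 11). Both 4 dpi libraries were below all of 1 dpi, and the interaction was -1.47 (SE 0.22, adjusted p 0.000705). For TRIB3 the ratios were -0.58, -0.71 and -0.27 at 1 dpi and -1.35 and -1.88 at 4 dpi (interaction -1.10, SE 0.17, adjusted p 0.000737). TRIB3 was thus lower in mitochondria-rich cells of every library, and more so at 4 dpi.

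ATF4 itself, which showed no change with time that passed over all cells, had ratios of -0.27, -0.03 and -0.38 at 1 dpi and -0.92 and -1.19 at 4 dpi (interaction -0.83, SE 0.14, adjusted p 0.0016). DDIT3 had ratios of -0.27, -0.21 and -0.81 at 1 dpi and -1.40 and -1.54 at 4 dpi (interaction -1.05, SE 0.19, adjusted p 0.00195). In both, the 4 dpi libraries were lower than each library of 1 dpi. The interactions of DDIT4 (-0.96), ASNS (-0.91), PHGDH (-0.87) and SLC7A11 (-0.53, adjusted p 0.0481) had the same sign.

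PSAT1 and CHAC1 were the exceptions. PSAT1 had ratios of 0.36, -0.27 and 0.26 at 1 dpi and -0.08 and -0.29 at 4 dpi, near 0 in sum (0.00, SE 0.11), with an interaction of -0.30 (SE 0.17, adjusted p 0.317). Between upper and lower terciles, however, the interaction of PSAT1 was -0.64 (adjusted p 0.0228) and passed. CHAC1 was lower in mitochondria-rich cells at both times, with ratios of -0.66, -1.996 and -0.19 at 1 dpi and -0.84 and -1.50 at 4 dpi. Library 7 gave the lowest of these, and without it the difference over all libraries was -0.76 rather than -0.998 and still passed. In thinned cells the difference of CHAC1 was -0.42 (adjusted p 0.416) and did not pass, nor did those of DDIT4 (-0.31), SESN2 (-0.65) and SLC7A11 (-0.35).

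**Figure D2:**
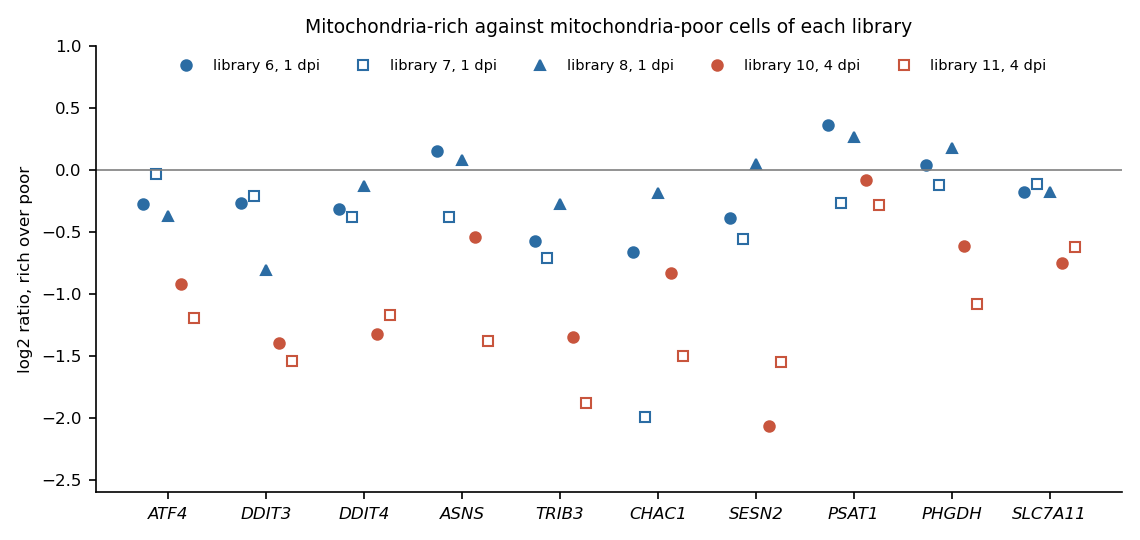
Log2 ratio of the level in mitochondria-rich cells to that in mitochondria-poor cells, for each of the 10 genes, 1 point per library. For ATF4, DDIT3, DDIT4, ASNS, TRIB3, SESN2, PHGDH and SLC7A11 both 4 dpi libraries lie below the 3 libraries of 1 dpi.

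The mitochondrial groups were not the same split at both times. The median mitochondrial share was 15.9%, 14.9% and 14.4% in mitochondria-rich cells of 1 dpi and 18.1% and 17.4% in those of 4 dpi. In mitochondria-poor cells it was 8.74%, 8.51% and 8.08% at 1 dpi and 6.57% and 8.14% at 4 dpi, so the gap was wider at 4 dpi. The median share of UMIs in cell cycle genes in mitochondria-rich cells was 0.350%, 0.435% and 0.340% at 1 dpi and 0.503% and 0.652% at 4 dpi. The part of these differences in the interaction was not tested. Without library 11 only SESN2 (-1.76) passed the interaction, with ASNS at -0.50 and all 8 still negative, and 1 library then stood for 4 dpi. In thinned cells DDIT3 (-0.90), DDIT4 (-1.12) and SLC7A11 (-0.68) missed the threshold. SLC7A11, the weakest of the 8, also missed the threshold when any other library was left out (-0.55 to -0.47).

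Read the other way, the change with time depended on which cells were taken, in a comparison chosen after seeing the data. In mitochondria-poor cells 2 of the 10 genes were lower at 4 dpi, beside 9.07% of 11572 genes: DDIT4, with 179, 213 and 181 CPM at 1 dpi and 93.2 and 101.3 CPM at 4 dpi (-0.97, SE 0.14, adjusted p 5.04e-05, edgeR), and PSAT1 (-0.75, SE 0.14, adjusted p 0.000654). In mitochondria-rich cells 9 of the 10 were lower, all but CHAC1, beside 13% of 11036 genes. There DDIT4 had 133, 151 and 154 CPM at 1 dpi and 34.5 and 41.6 CPM at 4 dpi (-1.93, SE 0.17, adjusted p 1.19e-06). SESN2 had 111, 108 and 155 CPM at 1 dpi and 27.6 and 42.9 CPM at 4 dpi (-1.81, SE 0.21, adjusted p 2.18e-05). For both genes every 1 dpi library was above both 4 dpi libraries.

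The fitted changes of ATF4 and DDIT3 with time had opposite signs in the cells of each kind. In mitochondria-poor cells ATF4 stood at 1013, 861 and 1016 CPM at 1 dpi and at 1081 and 1229 CPM at 4 dpi, a rise of 0.26 (SE 0.11) that did not pass (adjusted p 0.105). In mitochondria-rich cells it stood at 773, 780.4 and 727.5 CPM at 1 dpi and at 531 and 498 CPM at 4 dpi, a change of -0.56 (SE 0.11, adjusted p 0.00126). DDIT3 had 149.8, 209.7 and 213.9 CPM at 1 dpi and 225 and 279.7 CPM at 4 dpi in mitochondria-poor cells, apart but not past the threshold (0.41, SE 0.15, adjusted p 0.0565), and changed by -0.65 (adjusted p 0.0131) in mitochondria-rich cells. By the interaction given above, cells of each kind differed in the change of these genes with time. Mitochondrial UMIs were left out of the sums of the mitochondrial groups and kept in those over all cells. Levels of the groups and of all cells are therefore not on the same scale.

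**Figure D3:**
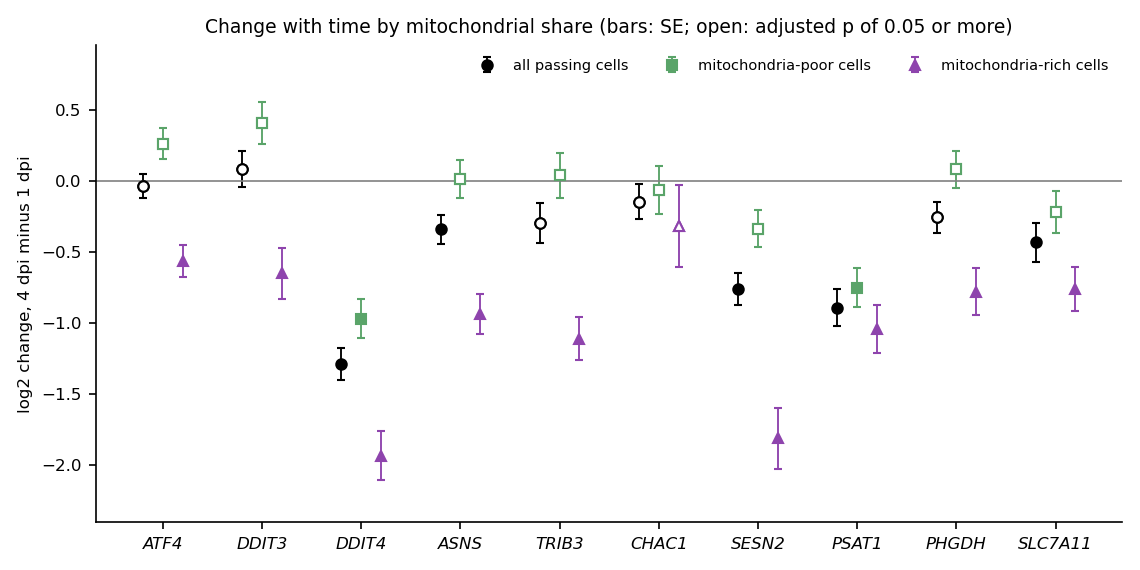
Log2 change from 1 dpi to 4 dpi of each of the 10 genes with its SE, in all cells (circles), mitochondria-poor cells (squares) and mitochondria-rich cells (triangles); open symbols have an adjusted p of 0.05 or more. DDIT4 and PSAT1 are lower in all 3 sets, and 9 of the 10 are lower in mitochondria-rich cells.

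The cells were split in the same way by the share of UMIs in the S and G2/M phase genes shipped with Seurat, 0 of which are members. In the cycle-rich cells 9 of the 10 genes were lower, all but PHGDH, and 0 were higher (0 also by DESeq2 and at an unadjusted p under 0.05), beside 7.53% lower and 8.05% higher of 10783 genes (edgeR quasi-likelihood, library as a block). DESeq2 called 6 lower, and DDIT4 (adjusted p 0.187), PSAT1 (0.0597) and SESN2 (0.343) missed the threshold there. The median difference of the 10 was -0.49, beside -0.02 for all genes. TRIB3 had the largest difference, with log2 ratios of cycle-rich to cycle-poor cells of -0.85, -0.74 and -0.64 at 1 dpi and -0.997 and -2.15 at 4 dpi (-1.06 over all, SE 0.14, adjusted p 9.19e-06). It was lower in cycle-rich cells in 5 of 5 libraries.

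The cystine importer SLC7A11 came next, with ratios of -0.82, -0.89 and -0.03 at 1 dpi and -0.50 and -1.23 at 4 dpi (-0.68 over all, SE 0.12, adjusted p 0.00023). DDIT3, ASNS and ATF4 were also lower in 5 of 5 libraries, with differences of -0.57, -0.48 and -0.33. CHAC1 (-0.62), SESN2 (-0.51), DDIT4 (-0.45) and PSAT1 (-0.30) were lower in 4 of 5, the exception being library 7 for CHAC1, library 8 for SESN2 and DDIT4 and library 10 for PSAT1. The median mitochondrial share of cycle-rich cells was 12.23%, 11.43% and 10.99% at 1 dpi and 14.66% and 14.27% at 4 dpi. In cycle-poor cells it was 13.01%, 11.01% and 10.31% at 1 dpi and 11.95% and 10.33% at 4 dpi. The gap was wider in both 4 dpi libraries, and its part in the results by cycle group was not tested. Cycle-rich cells were also deeper, with median UMIs between 23214 and 41215 against 16211 to 31827, and at equal depth ASNS, PSAT1, SLC7A11 and TRIB3 still passed. There CHAC1 (-0.57), SESN2 (-0.47), DDIT4 (-0.43), DDIT3 (-0.35) and ATF4 (-0.21) missed the threshold, and PHGDH turned to 0.07. Without library 6 the 5 genes that passed were ATF4, DDIT3, ASNS, TRIB3 and SLC7A11, and without library 11 SESN2 (-0.29), DDIT4 (-0.34) and PSAT1 (-0.25) did not pass. DDIT4 also missed the threshold without library 10 (-0.37), and PSAT1 without library 7 (-0.25).

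No member passed the interaction of cycle group and time (0 by edgeR, 0 by DESeq2, 2 at an unadjusted p under 0.05), where 0.371% of all genes did. TRIB3 came nearest, with a difference of -0.75 at 1 dpi and -1.58 at 4 dpi (interaction -0.83, SE 0.20, adjusted p 0.0687).

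Over all UMIs, 44 of the 45 pairs of the 10 genes had a Spearman rho above 0 in all 5 libraries, and the mean over pairs was 0.370, 0.366 and 0.391 at 1 dpi and 0.387 and 0.370 at 4 dpi, by library (533 cells at 1 dpi and 293 at 4 dpi). Cells of a library share their plate, and genes of a cell share its depth. At equal depth of 5000 UMIs a cell the means were 0.225, 0.232 and 0.234 at 1 dpi and 0.265 and 0.295 at 4 dpi, and 45, 43 and 44 of the 45 pairs were above 0 at 1 dpi and 45 and 44 at 4 dpi. Pairs of other genes were not taken. No p is given, since cells are not replicates.

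Over all UMIs the closest pair was that of the regulators TRIB3 and SESN2, with rho of 0.597, 0.598 and 0.616 at 1 dpi and 0.474 and 0.478 at 4 dpi. ASNS and PSAT1 followed with 0.516, 0.553 and 0.616 at 1 dpi and 0.675 and 0.324 at 4 dpi, and ASNS and TRIB3 had a narrower range, from 0.503 to 0.552. At equal depth ASNS and TRIB3 were the closest (mean 0.428), ahead of TRIB3 and SESN2 (0.406). SLC7A11 had a mean rho of 0.522 with ASNS, 0.519 with TRIB3 and 0.506 with PSAT1.

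ATF4 was the gene least tied to the other 9 by mean rho over pairs, at 0.292 over all UMIs. At equal depth it had 0.181, beside 0.183 for PHGDH. Against the summed level of the other 9 in thinned cells, CHAC1 (0.290) and PHGDH (0.274) lay below ATF4 (0.324). The closest pair of ATF4 was DDIT3 over all UMIs (0.470) and TRIB3 at equal depth (0.316, beside 0.312 for DDIT3). For ATF4 and DDIT3, rho was 0.393, 0.383 and 0.387 at 1 dpi and 0.586 and 0.601 at 4 dpi, higher in both 4 dpi libraries than in any of 1 dpi, a difference that was not tested. The pair without a common sign was ATF4 and PSAT1, with 0.0019, -0.110 and 0.120 at 1 dpi and 0.021 and 0.041 at 4 dpi. DDIT3 and PSAT1 were also near 0 (mean 0.086). TRIB3, by contrast, had a mean rho of 0.454 with the other 9, the highest of the 10.

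**Figure D4:**
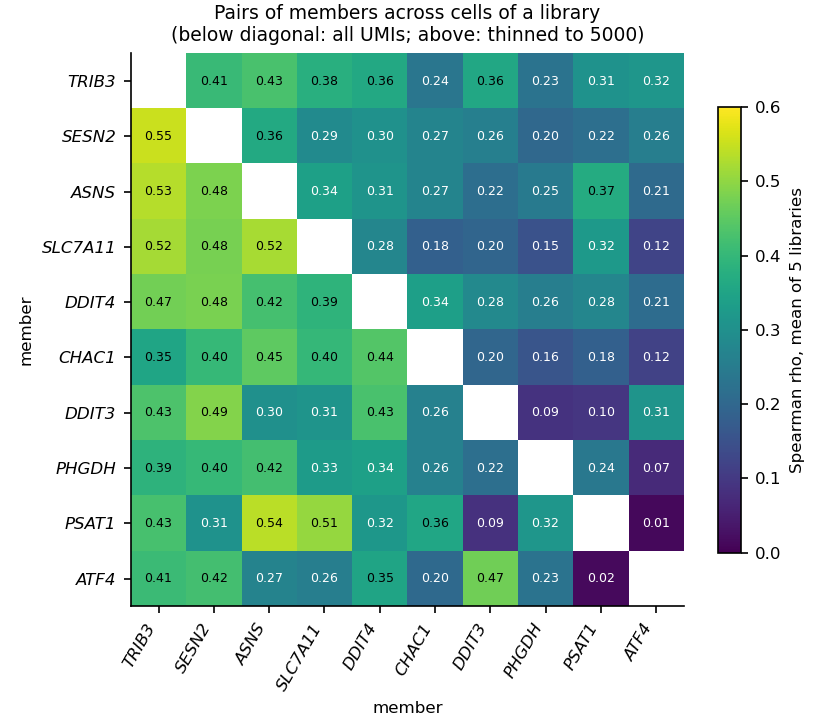
Mean over 5 libraries of the Spearman rho of each pair of the 10 genes across the cells of a library; all UMIs below the diagonal, cells thinned to 5000 UMIs above it. Below the diagonal TRIB3 and SESN2 have the highest value (0.553) and ATF4 and PSAT1 the lowest (0.015); above it ASNS and TRIB3 have the highest (0.428).

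The summed level of the 10 genes was more negatively related to the mitochondrial share at 4 dpi, a difference that was not tested. Its rho with the share of mitochondrial UMIs was -0.131, -0.244 and -0.220 at 1 dpi and -0.485 and -0.636 at 4 dpi. With the share of cell cycle genes it was -0.269, -0.266 and -0.271 at 1 dpi and -0.070 and -0.248 at 4 dpi. With total UMIs it was between -0.137 and 0.124 in each library. The summed level was taken per all UMIs, mitochondrial ones included, so a higher mitochondrial share lowers it in part by construction. The size of that part was not tested.

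The genes most like the 10 were sought among 5526 genes found in at least 10% of the thinned cells of every library, by the mean rho with the summed level (a member's own UMIs left out). The median of all was 0.027 and the 99th percentile 0.282, and 9 of the 10 members were at or over that percentile when set against the other 9. The exception was PHGDH at 0.274. Highest outside the members was SLC3A2, the heavy chain that pairs with SLC7A11 and SLC7A5, with rho of 0.465, 0.530 and 0.530 at 1 dpi and 0.510 and 0.581 at 4 dpi. CEBPG, a bZIP protein that dimerizes with ATF4, followed with a mean of 0.4996, and SNHG12, a host gene of small nucleolar RNAs, with 0.493.

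The next were EIF1, CEBPB, the synthetases GARS and TARS, TES, HERPUD1, MAP1LC3B, KLF5, SLC38A2, SNHG8, the tRNA exporter XPOT and MTHFD2, with means from 0.453 down to 0.394. All 15 had a rho above 0 in every library, 10 of the 15 were in the lists used here, and 13 of the 15 were also among the top 15 without thinning, an alternative chosen after seeing the data. Without thinning CEBPG (mean 0.693) and CEBPB (0.651) lay above SLC3A2 (0.625). Of the 15, 5 were lower and 3 higher at 4 dpi (edgeR), beside 14.2% and 13.4% of all genes. SNHG12, for example, had 380.4 ± 31.4 CPM (SD, n = 3) at 1 dpi and 372 ± 45.6 CPM (SD, n = 2) at 4 dpi, with overlap and no change that passed.

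The tRNA synthetases were taken as a pair of lists. All 13 genes of the list of synthetases usually given as ATF4 targets (with XPOT) were above the median rho of all genes, with a list median of 0.342. Of the remaining 8 cytosolic synthetases 0 were above it, with a list median of 0.005 and a highest value of 0.021 (RARS). In cycle-rich cells 10 of the 13 were lower and 0 higher and 0 of the 8 lower and 1 higher, and 7 of the 13 and 0 of the 8 had a more negative mitochondrial difference at 4 dpi. Of all genes 7.53% were lower and 8.05% higher in cycle-rich cells, 4.48% had such a difference, and 14.2% were lower and 13.4% higher with time, the shares to set beside each list from here on. With time 3 of the 13 were lower and 0 higher: WARS had 231, 222.5 and 251 CPM at 1 dpi and 149 and 185 CPM at 4 dpi (-0.49), and GARS (-0.45) and MARS (-0.43) also fell. Of the 8, FARSB (-0.35) and RARS (-0.34) were lower and 0 higher. WARS (-0.34), MARS (-0.38) and FARSB (-0.32) missed the threshold without library 10, and RARS without library 6, 7, 10 or 11 (-0.37 to -0.29). So did WARS (-0.23), MARS (-0.29) and RARS (-0.20) with the mitochondrial maximum at 15%. The difference between the lists was not tested.

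**Figure D5:**
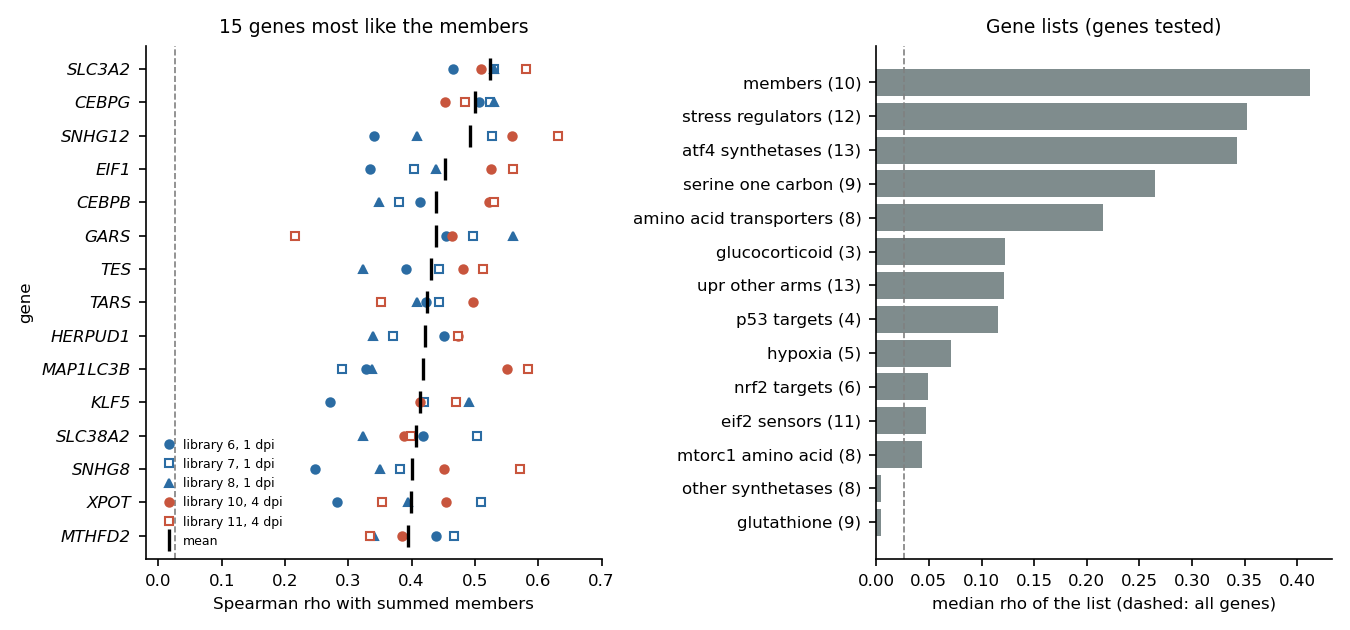
Left, rho with the summed level of the 10 genes in each library (thinned cells) for the 15 genes most like them, with the mean as a bar. Right, median rho of each gene list with the number of genes tested; the dashed line is the median of all 5526 genes (0.027), above which lie all 13 genes of the first synthetase list (1 of them XPOT) and 0 of the 8 others.

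Among other regulators of the integrated stress response, 15 of 17 were tested, 6 were higher and 3 lower at 4 dpi, so that not all genes of the response fell. KLHL24 rose from 22.2, 28.7 and 20.6 CPM at 1 dpi to 51.3 and 50.2 CPM at 4 dpi (1.09, SE 0.15, adjusted p 9.81e-05). In mitochondria-poor cells alone its change was 1.54, and in mitochondria-rich cells alone it was 0.47 and did not pass. ATF3, a bZIP factor that is also an immediate early gene, rose from 204, 242 and 182.5 CPM to 324 and 343 CPM (0.67). PPP1R15A (GADD34), which leads the phosphatase that reverses eIF2 phosphorylation, rose from 214, 267 and 160.2 CPM to 343 and 341 CPM (0.68), but in mitochondria-rich cells alone it changed by -0.37 without passing. STC2 (-0.59), CEBPG (-0.43) and HERPUD1 (-0.37) fell, with HERPUD1 at 0.09 in mitochondria-poor cells alone. Without library 11 CEBPG missed the threshold (-0.29), as did HERPUD1 without library 6, 8 or 10 (-0.33 to -0.27).

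Of these 15 regulators 8 were lower and 1 higher in mitochondria-rich cells, beside 9.5% and 10.5% of all genes, and 8 had a more negative difference there at 4 dpi, with a median interaction of -1.06 beside 0.01 for all genes. SQSTM1, an autophagy receptor, differed by -0.02 at 1 dpi and -1.71 at 4 dpi (interaction -1.69, SE 0.14, adjusted p 8.85e-07). MAP1LC3B differed by -0.21 and -1.82, PPP1R15A by -0.32 and -1.75, GDF15 by -0.18 and -1.49, HERPUD1 by 0.14 and -1.11, CEBPB by -0.37 and -1.53, CEBPG by -0.30 and -1.26 and KLHL24 by 0.31 and -0.75. The direction was that of 8 of the 10 ATF4 genes. In cycle-rich cells 9 of the 15 were lower and 0 higher.

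Upstream of ATF4, of 13 eIF2 kinases, eIF2B subunits and their regulators, 0 were higher and 1 lower at 4 dpi. That gene was EIF2S1, the alpha subunit of eIF2 that the kinases phosphorylate, with 200.4, 213 and 221 CPM at 1 dpi and 152 and 176 CPM at 4 dpi (-0.37, SE 0.10, adjusted p 0.0137), and it missed the threshold without library 10 (-0.26). PPP1R15B, the constitutive partner of the eIF2 phosphatase, had a mitochondrial difference of -0.25 at 1 dpi and -1.08 at 4 dpi. Phosphorylation was not measured.

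Of the amino acid transporters, 2 of 11 tested were higher and 1 lower at 4 dpi, beside 13.4% and 14.2% of all genes. SLC7A5, the light chain of the leucine importer LAT1, rose from 94.98, 95.9 and 115 CPM to 156 and 166 CPM (0.66, SE 0.11, adjusted p 0.000388). Both 4 dpi libraries were above all of 1 dpi. Its partner SLC3A2 rose from 886, 787 and 817 CPM to 1000 and 1008 CPM (0.28, SE 0.09, adjusted p 0.0256), but was at -0.26 in mitochondria-rich cells alone, which did not pass (adjusted p 0.0965), and without library 7, 8, 10 or 11 it missed the threshold at between 0.24 and 0.28, as it did with no mitochondrial maximum (0.23), in thinned cells (0.26) and by the mean of cells (0.13). The glutamine importer SLC1A5 was lower (-0.28; not past the threshold without library 8, at -0.20, or 11, at -0.22), and at 0.04 in mitochondria-rich cells alone, which did not pass. Its mitochondrial difference became more positive at 4 dpi (0.06 to 0.62), opposite to that of SLC3A2 (-0.18 to -1.02).

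In serine, one-carbon and transamination metabolism, 2 of 12 genes were lower and 1 higher. GPT2, the mitochondrial alanine transaminase, fell from 91.6, 89.98 and 73.1 CPM to 48.3 and 44.5 CPM (-0.88, SE 0.13, adjusted p 0.000196), a fall like that of PSAT1. The aspartate transaminase GOT1 also fell (-0.56; in thinned cells -0.45, which did not pass), and the cytosolic hydroxymethyltransferase SHMT1 rose (0.75) at low counts, with 14.2, 15 and 11.1 CPM at 1 dpi and 24.7 and 20.8 CPM at 4 dpi, and missed the threshold without library 10 (0.62). CTH, the last enzyme of cysteine synthesis from methionine, had a mitochondrial difference of -0.56 at 1 dpi and -2.58 at 4 dpi (interaction -2.02, SE 0.35).

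Of the inputs of mTORC1 on which SESN2 and DDIT4 act, 2 of 20 genes were higher and 2 lower. GATSL2, now named CASTOR2, an arginine sensor homolog, rose (0.69) and so did the GTPase RRAGC (0.39, but -0.08 in mitochondria-rich cells alone). MIOS (-0.49) and SEH1L (-0.48), subunits of the GATOR2 complex that SESN2 binds, fell. RRAGA had a more negative mitochondrial difference at 4 dpi (0.08 to -0.71). MIOS missed the threshold without library 10 (-0.41), SEH1L without library 11 (-0.37), and GATSL2 and RRAGC without library 7 (0.64 and 0.36) or 11 (0.59 and 0.31).

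Around glutathione, 3 of 12 genes were higher and 2 lower. GPX4, the peroxidase that clears lipid peroxides with glutathione, rose from 245, 235 and 267 CPM to 407 and 395 CPM (0.69, SE 0.09, adjusted p 7.41e-05). GSS (0.43) and GPX1 (0.42) also rose, and AIFM2 (-0.70) and GCLC (-0.40) fell. GSS (0.32) and GPX1 (0.33) missed the threshold without library 11, and GCLC without library 7, 8, 10 or 11 (-0.41 to -0.37). GGCT had a mitochondrial difference of 0.50 at 1 dpi and 1.09 at 4 dpi, against the direction of the ATF4 genes. The median rho of this list with the summed ATF4 genes was 0.005, below that of all genes.

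Other lists share single genes with the ATF4 list. Among NRF2 targets, which share SLC7A11, 3 of 10 were lower (NQO1 -0.87, ME1 -0.69, SRXN1 -0.49). Of the hypoxia genes, which share DDIT4, 1 of 9 was lower and 0 higher: ANKRD37 had 14.98, 19.2 and 12.6 CPM at 1 dpi and 6.80 and 9.11 CPM at 4 dpi (-0.97, SE 0.25). Of the glucocorticoid targets, which also share DDIT4, 1 of 5 was higher (FKBP5, 0.46) and 0 lower. Of the p53 targets, which share SESN2, 1 of 10 was higher (TP53INP1, 2.85 at few UMIs) and 0 lower. ANKRD37 (-0.77), FKBP5 (0.40) and TP53INP1 (2.3) missed the threshold without library 10, and ME1 (-0.48) and SRXN1 (-0.42) without library 11.

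As a description of the genes' upstream sequence, windows from 250 bases before to 50 bases after each RefSeq transcription start (GRCh38.p14) were searched for the C/EBP-ATF response element core TGATGNAA, or TTNCATCA on the opposite strand. The motif was in 3.617% of all windows and in 4.457% of the 27305 genes. The table held 9 of the 10 members, with SLC7A11 not among them, and 2 of the 9 had a match, ASNS and CHAC1. Both are shown because they are the members that hold it; a stretch of 100 bases around the match is given 5′ to 3′ on the gene's strand, from 114 to 15 bases before the start for ASNS and from 250 to 151 for CHAC1, with the match in capitals. The ASNS stretch is chr7:97872423-97872522 (minus strand) and the CHAC1 stretch is chr15:40953221-40953320 (plus strand).
ASNS: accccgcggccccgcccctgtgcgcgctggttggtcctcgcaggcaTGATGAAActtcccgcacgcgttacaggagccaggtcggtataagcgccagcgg
CHAC1: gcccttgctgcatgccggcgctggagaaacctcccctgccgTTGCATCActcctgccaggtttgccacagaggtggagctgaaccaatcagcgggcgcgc

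The ASNS match begins 68 bases before the start on the gene's strand, and the CHAC1 match begins 209 bases before it on the opposite strand. Another RefSeq start of ASNS had a window without a match, so the ASNS match depends on the start taken. ASNS and CHAC1 had a mean rho of 0.451 with each other. Their changes with time were -0.34 and -0.15 and their mitochondrial interactions -0.91 and -0.25. In thinned cells the interactions were -0.87 and -1.15, and the difference between the 2 genes was not tested. A match is a description of the letters only, and members without one may hold it outside this window.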

How the data were processed

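The authors deposited UMI counts, not normalized, for each gene in each well of 5 SORT-seq libraries, and per the submitters' notes reads were aligned with BWA (version not given) to hg38. Counts were checked to be whole numbers (0 non-integer values). At least 1 library listed 21199 genes and all 5 listed 15266, of which 15028 were used, being seen in at least 10 of 1920 wells. Wells with over 2000 genes and under 25% mitochondrial UMIs were kept (826 cells), ERCC rows taking part in that filter as in the authors' code (822 cells without them), and doublets were not called. ERCC counts and 2 repeated symbols were left out of levels. Levels are CPM after TMM scaling, and mitochondrial UMIs were left out of the totals of the mitochondrial groups only.

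UMIs were summed per library, or per library and cell group, and tested with edgeR 4.0.16 (TMM, filterByExpr, quasi-likelihood, two-sided), with Benjamini-Hochberg adjustment over all genes tested and a threshold of 0.05. Cell groups were split at each library's median share of mitochondrial UMIs or of 99 phase genes of Seurat 5.3.0, with library as a block and the interaction with time tested in the same fit. Libraries of different time points share no replicate number, so they were not paired by replicate. Each flow cell held libraries of both time points, and flow cell was taken as a term in an alternative. Libraries of 1 group differed by more than counting error (chi-square per degree of freedom 3.18 to 4.39). R 4.3.3, DESeq2 1.42.0, limma 3.58.1, Python 3.11.15, numpy 2.4.6, pandas 2.3.3, scipy 1.17.1 and matplotlib 3.10.9 were used. Correlations are Spearman's within each library. The smallest exact permutation p for 3 against 2 libraries is 0.1. The tests were tested on simulated data. There the test with time called 30.2% of genes changed by 0.5 on the log2 scale and 81.8% of those changed by 1. Unchanged genes made up 3.51% of its calls, 4.48% of those by cycle group and 6.35% of those by mitochondrial group.

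Named genes are the 10 members, up to 3 genes called higher and 3 called lower with the largest change in each of 13 wider lists (162 genes), the 15 genes most like the members, and members or list genes whose interaction with time was called. The result of 1 gene of these lists is not reported here. The members and lists were chosen with earlier results of these data known.

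Alternatives for the change with time were size factors of DESeq2, library size alone, ERCC scaling, no mitochondrial genes, DESeq2, no filter on low counts, genes of any library, a minimum of 1000 or 3000 genes, a mitochondrial maximum of 15% or none, cells thinned to 5000 UMIs, the mean of cells with limma, flow cell as a term and leaving out each library. For the cell groups they were DESeq2, thinning, no filter, upper against lower terciles and leaving out each library, and for correlations thinning, Pearson's r and leaving out each library. ERCC scaling with flow cell as a term, each mitochondrial group alone and likeness without thinning were chosen after seeing the data.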

Additional observations from a re-analysis of the deposited data

Results flagged for a closer look

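The difference between mitochondria-rich and mitochondria-poor cells changed with time by an interaction test in edgeR (library as a block, over 11003 genes) for 8 of the 10 ATF4 genes. The values (log2, difference at 4 dpi minus difference at 1 dpi) were -0.83 for ATF4, -1.05 for DDIT3, -0.96 for DDIT4, -0.91 for ASNS, -1.10 for TRIB3, -1.47 for SESN2, -0.87 for PHGDH and -0.53 for SLC7A11. The difference between the time points was itself tested. Without library 11 the value of SESN2 (-1.76) passed and those of the other 7 did not, though each was negative, from -0.50 for ASNS to -1.04 for DDIT4. DESeq2 called 5 of the 8, without ASNS, PHGDH and SLC7A11.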

How the results depend on the processing

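The falls of DDIT4, SESN2 and PSAT1 kept their direction under every alternative run, between -1.51 and -0.54 for DDIT4, between -0.96 and -0.30 for SESN2 and between -1.22 and -0.63 for PSAT1 over the 19 planned ones. Of 220 values of the members' change with time, 184 kept direction and side of the threshold, 15 lost and 8 gained the call, and 13 changed sign. The cause of the changes below was not tested.

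ERCC scaling called 0 members, 1 gene higher and 1 gene lower at 4 dpi, and put DDIT3 at -0.16 (-0.0069 with flow cell as a term). A mitochondrial maximum of 15% called 3 members lower and put ATF4 at 0.20, DDIT3 at 0.41 (adjusted p 0.0518) and TRIB3 at 0.07. Of the other genes named, WARS (-0.23), MARS (-0.29), RARS (-0.20), CEBPG (-0.18), HERPUD1 (-0.02), HSPA5 (-0.36), GCLC (-0.29), SRXN1 (-0.25), ANKRD37 (-0.82), SHMT1 (0.56), GATSL2 (0.56), GSS (0.29) and FKBP5 (0.36) then missed the threshold. Flow cell as a term called 6 members lower, with TRIB3 at -0.38. The mean of cells with limma called 7 members lower, with TRIB3 (-0.49) and PHGDH (-0.12, adjusted p 0.0499) gained. It put DDIT3 at -0.12 and XBP1 at -0.02. There SLC3A2 (0.13), SLC1A5 (-0.21), PPP1R15A (0.20), RRAGC (0.08), MIOS (-0.09), GCLC (-0.10), ANKRD37 (-0.05) and TP53INP1 (0.02) missed the threshold. So did PPP1R15A (0.68), XBP1 (0.30), GATSL2 (0.69), RRAGC (0.39) and GCLC (-0.40) by DESeq2, SLC3A2 (0.23), SLC1A5 (-0.23), XBP1 (0.24) and RRAGC (0.32) with no mitochondrial maximum, XBP1 with no filter (0.28) or flow cell as a term (0.27), and SLC1A5 by library size alone (-0.25). Mitochondria-poor cells alone called 2 members and 1050 genes lower and 1087 higher, with ATF4 at 0.26, DDIT3 at 0.41, ASNS at 0.01, TRIB3 at 0.04, PHGDH at 0.08 and HERPUD1 at 0.09. Mitochondria-rich cells alone called 9 members lower, with DDIT3 at -0.65, SLC3A2 at -0.26, SLC1A5 at 0.04, PPP1R15A at -0.37, XBP1 at -0.58 and RRAGC at -0.08.

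Thinning, which removes counts, called 4 members lower, 648 genes higher and 525 lower at 4 dpi, with ATF4 at 0.06 and ASNS (-0.30) lost; 4 members lower, 220 genes higher and 218 lower in cycle-rich cells, with PHGDH at 0.07; and 4 members lower, 313 genes higher and 204 lower in mitochondria-rich cells, with PSAT1 at -0.17. Thinning also called the cycle interaction in 1 member and the mitochondrial one in 5, and lowered the mean rho of the pairs from 0.377 to 0.250. Of the other genes named, FARSB (-0.46), RARS (-0.24), SLC3A2 (0.26), SLC1A5 (-0.17), SHMT1 (0.91), GOT1 (-0.45), CEBPG (-0.27), HERPUD1 (-0.23), EIF2S1 (-0.38), CRELD2 (-0.56), DNAJB11 (-0.38), GATSL2 (0.81), MIOS (-0.40), SEH1L (-0.38), GSS (0.49), AIFM2 (-0.70), GCLC (-0.67), ME1 (-0.58) and FKBP5 (0.51) missed the threshold with time in thinned cells. ANKRD37 and TP53INP1 did not pass the filter on low counts there, nor did TP53INP1 in either mitochondrial group or without library 6, 7 or 8. Pearson's r gave 0.417. DESeq2 called 6 members lower, 524 genes higher and 350 lower in cycle-rich cells, 5 members lower in mitochondria-rich cells and the mitochondrial interaction in 5 members, with PSAT1 at -0.00097 in mitochondria-rich cells. With no filter the cycle interaction passed in 1 member and PSAT1 was at -5.8e-05. Upper against lower terciles called 3 members lower in mitochondria-rich cells and the mitochondrial interaction in 9, PSAT1 (-0.64) among them.

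Leaving out 1 library called from 4 to 5 members, 1197 to 1500 genes lower and 1155 to 1440 genes higher at 4 dpi. In cycle-rich cells it called from 5 to 9 members and 487 to 729 genes lower and 657 to 748 genes higher. In mitochondria-rich cells it called from 3 to 7 members and 455 to 952 genes lower and 564 to 976 genes higher. The interactions then passed in 0 to 2 members for the cycle groups and 1 to 7 for the mitochondrial groups, and 0 members were higher in any comparison. The mean rho stayed between 0.373 and 0.379. DDIT3 changed sign with time without library 6 (-0.04) or 11 (-0.02) and reached 0.21 without library 7, PSAT1 in mitochondria-rich cells without library 6 (-0.09) or 8 (-0.07), and the CHAC1 interaction without library 8 or 11 (0.07 each; -0.70 without library 7). Without library 10 or 11 a lone 4 dpi library is assumed to vary like the others.

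Limits were the 5 plates, which may share pools within a time point, the spike-in share that moved with flow cell, the lower depth of cells at 4 dpi, and the few UMIs of CHAC1 (1375 in all cells). Cell groups were defined by shares of the same counts, and the members' UMIs entered only the totals of those shares. The groups differ in depth and mitochondrial share between time points. The mitochondrial share was also a quality measure of the well filter, so cell quality cannot be told apart from the mitochondrial groups. Translation of ATF4, phosphorylation and amino acid levels were not measured.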

Other observations

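Genes of the other arms of the unfolded protein response, set by ATF6 and by IRE1 with XBP1, were tested as well: of 16, 7 were lower and 1 higher at 4 dpi, beside 14.2% and 13.4% of all genes. HSPA5, the main chaperone of the endoplasmic reticulum, had 1070.0, 1059 and 1429 CPM in libraries 6, 7 and 8 and 738 and 805 CPM in libraries 10 and 11, with no overlap (-0.62, SE 0.12, adjusted p 0.00126, edgeR). CRELD2 (-0.70) and DNAJB11 (-0.49) fell with it. XBP1 rose by 0.30 (adjusted p 0.042) over all cells, but changed by -0.58 in mitochondria-rich cells alone and missed the threshold without library 6, 7, 8 or 11 (0.19 to 0.32).

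In mitochondria-rich cells 6 of these 16 genes were higher and 0 lower, beside 10.5% and 9.5% of all genes, and 5 had an interaction with time. The difference went from 0.70 at 1 dpi to -1.62 at 4 dpi for DNAJB9, from 0.07 to -1.27 for XBP1, from 0.36 to -0.53 for HSPA5, from 0.52 to -0.37 for HYOU1 and from 0.46 to -0.29 for MANF. HSP90B1 had an interaction of cycle group and time (-0.59 at 1 dpi, 0.16 at 4 dpi). Outside the endoplasmic reticulum, the mitochondrial difference of the hypoxia genes NDRG1 (0.86 to -1.67) and KDM3A (-0.44 to -1.45) and of the glucocorticoid target TSC22D3 (-0.27 to -2.51) moved in that direction as well, and of the p53 targets GDF15 moved in that direction and BTG2 (-0.72 to 0.95) in the opposite one. Among the synthetases the interaction passed for AARS (-0.94), CARS (-0.99), SARS (-0.55), TARS (-0.51), WARS (-0.77), YARS (-0.66) and XPOT (-0.66).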
